A study of Mus musculus with 800 samples.

Results

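The axon guidance ligand and receptor families were examined as a group of 66 genes among the 32285 genes of a single-nucleus count table from mouse brain. A gene belonged to the group when its symbol began with Sema, Plxn, Robo, Slit, Slitrk, Unc5, Ntn, Ntng, Epha, Ephb, Efna or Efnb followed by the paralog's digit or letter, and when at least 100 reads were counted over the labelled nuclei. Of 77 matching symbols, 5 lay on the X chromosome and were left out (Efnb1, Plxna3, Plxnb3, Slitrk2 and Slitrk4). A further 6 had fewer than 100 reads (Efna4, Epha2, Ntng2, Plxna4os1, Plxna4os3 and Sema3g). Unc50, an unrelated gene that shares the letters, was set aside. The members were 19 semaphorins, 8 plexin-named genes, 3 Slits, 4 Robos, 4 netrins, netrin G1, 4 Unc5 receptors, 4 ephrin-A and 2 ephrin-B ligands, 8 EphA and 5 EphB receptors, and 4 Slitrks. The plexin-named genes included Plxna4os2, an antisense RNA of the Plxna4 locus.

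These families carry instructions between cells. Semaphorins bind plexins, the secreted class 3 members with neuropilins as partners. Slits bind Robo receptors, netrins bind Dcc and the Unc5 receptors, and ephrins on one cell bind Eph kinases on the next. Slitrks are synaptic adhesion proteins that bind receptor tyrosine phosphatases. In the developing brain these pairs steer growing axons, and in the adult brain many are kept at synapses and on glia.

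The nuclei came from C57Bl/6J mice injected with an AAV PHP.eB vector at 5e11 vector genomes per mouse in young adulthood, and were sorted 3 to 4 weeks later for the yellow fluorescent histone H2B that the vector encoded. The 20 vectors, with 40 nuclei each, carried the promoters hSyn1 or CMV, the enhancers DLX2.0 or hI56i, or one of AiE0078h, AiE0140h, AiE0387m, AiE0390m, AiE0391h, AiE0401h, AiE0410m, AiE0445h_3xC2, AiE0447h, AiE0450h, AiE0452h, AiE0475m, AiE0600m, AiE0682h, AiE0743m_3xC2 and AiE0779m. The element that drives the label decided which nuclei were sorted, so the numbers of nuclei per class do not give the makeup of the tissue. All groups carried a vector, and the labels name no animal, so the vector was the unit of replication and p-values measure the spread between vectors.

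Nuclei were grouped by marker genes, with all members and the other guidance genes kept out of the clustering. Of 800 labelled nuclei, 790 had at least 500 genes detected. They comprised 109 glutamatergic-like nuclei (12 vectors with at least 3), 275 GABAergic-like (19 vectors), 165 striatal projection neuron-like (14 vectors), 116 astrocyte-like (9 vectors) and 125 oligodendrocyte-like nuclei (10 vectors). The tissue label of every nucleus is anterior lateral motor cortex, yet the 7 summed striatal projection neuron markers (among them Rgs9, Ppp1r1b, Pde10a, Drd1, Drd2 and Adora2a) stood at 5533 to 7118 counts per 1000000 reads (CPM) in that class and at 76.2 to 512 CPM in the GABAergic-like class. The series' design also names striatum, and 83 GABAergic-like and 33 glutamatergic-like nuclei lay in runs of 8 title numbers that also held a striatal projection neuron-like nucleus. The region of such nuclei cannot be told apart here. A nucleus held a median of 260171 reads. Median genes detected were 3266, 3124 and 2644 in the 3 neuronal classes, 1406 among astrocyte-like and 958 among oligodendrocyte-like nuclei.

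Levels below are CPM in the reads summed over the nuclei of a class within a vector, given as mean ± SD over vectors, and levels of different genes are compared only per kilobase (kb) of exon. CPM is a share of the reads of a sum, and RNA content per nucleus was not measured. By mean CPM, glutamatergic-like nuclei held the highest level of 22 members, GABAergic-like nuclei of 15, striatal projection neuron-like and oligodendrocyte-like nuclei of 12 each, and astrocyte-like nuclei of 5 (Efna2, Epha1, Ephb3, Plxnb1 and Sema4b). At least 10 CPM was reached by 42, 45 and 34 members in the glutamatergic-like, GABAergic-like and striatal classes, by 21 in astrocyte-like and by 16 in oligodendrocyte-like nuclei. No read was counted in the vectors used for 22 members in oligodendrocyte-like nuclei, against 3 to 7 in the other classes. The same counts over all genes were not taken, and the classes differ in vectors and in genes detected per nucleus. These counts are therefore no result about the members. The 12 members highest in oligodendrocyte-like nuclei include Robo4 and Ephb4, both hardly detected there.

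The semaphorins split by class. Sema4a, a transmembrane semaphorin, stood at 155 ± 135 CPM (SD, n = 12) in glutamatergic-like and 126 ± 112 CPM (n = 9) in astrocyte-like nuclei, and had no read in the oligodendrocyte-like sums. Sema6a and Sema6d, transmembrane semaphorins that bind class A plexins, had their highest means in oligodendrocyte-like nuclei, at 240 ± 165 and 191 ± 150 CPM (n = 10). Sema4g and Sema5a had their highest means in GABAergic-like nuclei (70.6 ± 51.2 and 69.5 ± 124 CPM, n = 19). The Sema5a median was 25.1 CPM, and its mean without CMV, at 546 CPM, was 43.1 CPM. Among the plexins, Plxna2 and Plxna4 were neuronal, while Plxnb1, a receptor of Sema4d, averaged 257 ± 201 CPM in astrocyte-like nuclei and 0.850 to 5.19 CPM in the neuronal classes.

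Of the secreted Slits, Slit3 was highest in striatal projection neuron-like nuclei (252 ± 103 CPM, n = 14) and Slit2 in GABAergic-like nuclei (79.8 CPM). Their receptor Robo2 stood at 249 ± 105 CPM (n = 19) and 251 ± 102 CPM (n = 14) in these classes, and at 4.50 CPM in oligodendrocyte-like nuclei. Robo3, a divergent Robo known from commissural axons, was highest in glutamatergic-like nuclei at 71.6 ± 42.2 CPM. The 4 netrins were low in the 5 classes, where the highest mean was 26.2 CPM, for Ntn4 in GABAergic-like nuclei. Their receptors Unc5b and Unc5c had their highest means in oligodendrocyte-like nuclei (81.1 ± 99.8 and 224 ± 186 CPM, n = 10).

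EphA receptors were mainly neuronal. Their 8 mean levels summed to 746, 624 and 553 CPM in the glutamatergic-like, GABAergic-like and striatal classes, against 100.4 CPM in the astrocyte-like and 43.4 CPM in the oligodendrocyte-like class. Among the ligands, Efnb3, a transmembrane ephrin, averaged 282 ± 257 CPM in oligodendrocyte-like nuclei and at most 35.6 CPM in another class, and Efna1, a lipid-anchored ephrin, 78.5 ± 98.3 CPM against at most 9.01 CPM.

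Per kb of exon, the leading members differed between classes. Ephb6, an Eph receptor without kinase activity, led in glutamatergic-like (34.4 ± 26.1 CPM per kb) and GABAergic-like nuclei (15.8 ± 14.1). In glutamatergic-like nuclei Sema4a (28.6), Epha4 (22.3), Slitrk5 (21) and Slit3 (16.98 CPM per kb) came next. Slitrk3, Robo2, Epha5 and Epha7 lay between 12.95 and 14.9 CPM per kb in GABAergic-like nuclei. Slit3 led in striatal projection neuron-like nuclei at 41.6 ± 16.96 CPM per kb, above Epha4 (23.6), Epha7 (20.4), Ephb1 (15.7) and Robo2 (14.8). Plxnb1 (26.8 ± 20.97), Sema4a (23.4), Sema6d (13.1), Sema4b (12.1) and Efna2 (10.3 CPM per kb) led in astrocyte-like nuclei. In oligodendrocyte-like nuclei the order was Efnb3 (88.6 ± 80.8), Efna1 (42.9), Sema6a (27.3), Sema6d (18.1) and Ephb1 (17.4 CPM per kb). Neighbours in each of these orders lie within the spread between vectors. How reads were assigned to genes is not given, so reads outside exons may have been counted. Exon length would then not be the right divisor, and the orders between genes hold only under that limit.

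**Figure D1:**
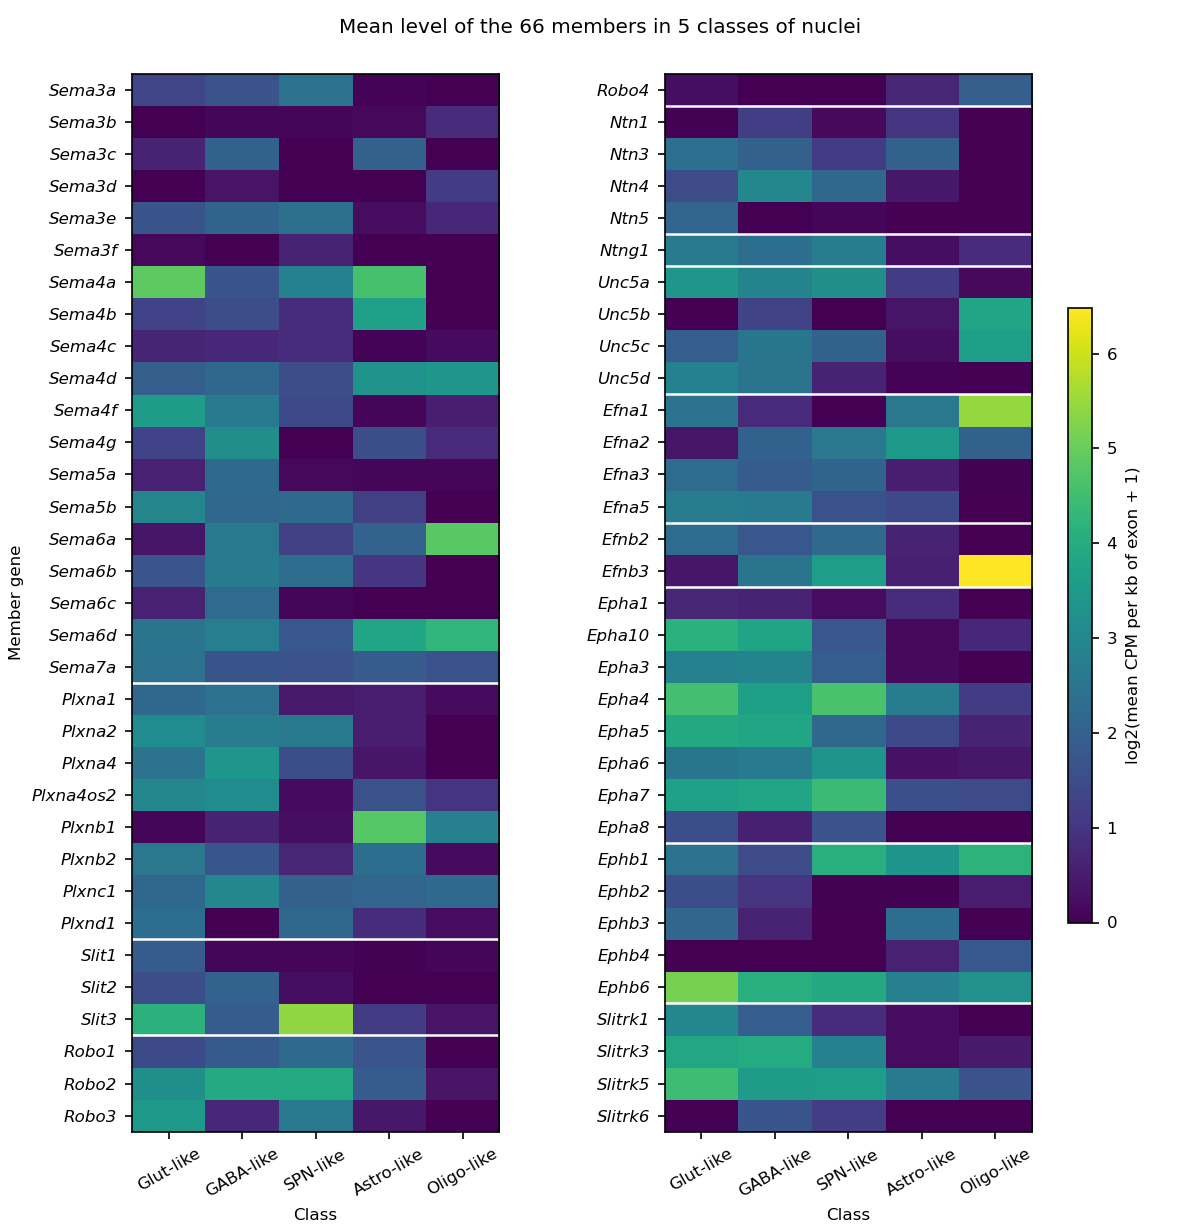
Mean level of the 66 members in the 5 classes, as log2 of mean CPM per kb of exon plus 1, with rows grouped by family and the mean taken over vectors. Of the EphA rows, Epha4 and Epha7 are bright in the 3 neuronal columns, while Epha1 is dark there. Plxnb1 is bright in the astrocyte-like column and Efnb3 in the oligodendrocyte-like column.

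Of the members called in the class comparisons described below, 5 were picked by name for promoter sequence. Others, Slit3 among them, are not shown. The 5 sequences are those of Robo3 and Sema4a (glutamatergic-like over GABAergic-like), Ephb1 (striatal projection neuron-like over GABAergic-like), Plxnb1 (astrocyte-like over neuronal) and Unc5b (oligodendrocyte-like over neuronal). Each is the stretch before the gene's start in RefSeq, build GRCm38.p6, 5′ to 3′ on the gene's strand, and ends before any annotated transcript of the gene begins. Capitals mark GGGCGG or its reverse complement CCGCCC, the core of a GC box. The stretches are chr9:37433247-37433425 (Robo3, minus strand), chr3:88461183-88461432 (Sema4a, minus), chr9:102354694-102354943 (Ephb1, minus), chr9:109095186-109095388 (Plxnb1, plus) and chr10:60831582-60831831 (Unc5b, minus).
Robo3: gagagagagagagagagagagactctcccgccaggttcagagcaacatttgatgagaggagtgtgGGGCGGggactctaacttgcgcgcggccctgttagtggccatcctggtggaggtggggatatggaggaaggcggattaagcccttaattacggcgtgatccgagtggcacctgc
Sema4a: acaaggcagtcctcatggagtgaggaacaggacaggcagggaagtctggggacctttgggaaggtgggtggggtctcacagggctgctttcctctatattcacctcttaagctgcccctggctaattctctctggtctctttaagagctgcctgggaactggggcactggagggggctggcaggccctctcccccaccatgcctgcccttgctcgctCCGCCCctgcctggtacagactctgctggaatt
Ephb1: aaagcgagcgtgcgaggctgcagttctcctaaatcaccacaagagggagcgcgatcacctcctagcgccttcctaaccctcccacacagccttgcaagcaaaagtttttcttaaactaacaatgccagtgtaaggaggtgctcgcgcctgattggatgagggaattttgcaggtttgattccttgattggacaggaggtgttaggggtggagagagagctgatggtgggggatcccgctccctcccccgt
Plxnb1: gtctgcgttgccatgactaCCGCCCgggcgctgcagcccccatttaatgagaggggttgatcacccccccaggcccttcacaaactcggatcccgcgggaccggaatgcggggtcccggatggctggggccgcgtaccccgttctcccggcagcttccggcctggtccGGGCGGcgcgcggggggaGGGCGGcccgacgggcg
Unc5b: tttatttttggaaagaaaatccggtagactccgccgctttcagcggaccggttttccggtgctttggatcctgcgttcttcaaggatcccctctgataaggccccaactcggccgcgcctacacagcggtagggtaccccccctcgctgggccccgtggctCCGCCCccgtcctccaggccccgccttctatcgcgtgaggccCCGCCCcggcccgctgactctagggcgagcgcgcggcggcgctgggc

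The Plxnb1 stretch held 3 matches of the GC box core, Unc5b 2, Robo3 and Sema4a 1 each, and Ephb1 none. On either strand the 6 letters occur in 32.7% of 32851 RefSeq mouse promoters (250 bases before the start). TATAAA, or its reverse complement, occurs in 12.4% of those promoters and in 0 of the 5 stretches. The Robo3 and Plxnb1 stretches hold only 179 and 203 bases and lack those nearest the RefSeq start. Their matches are thus not fully comparable with these shares. GC content ran from 54.0% for Ephb1 to 72.9% for Plxnb1. All 203 bases of the Plxnb1 stretch lie in an exon of the antisense Gm7628, and 1 base of the Ephb1 stretch in an exon of Gm26846 on the opposite strand.

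The first comparison asked which members separate the main neuron types, GABAergic-like from glutamatergic-like nuclei in the 12 vectors that held both. Robo3 and Sema4a were lower in GABAergic-like nuclei, and no member was called higher. Over all 8987 genes tested by edgeR's quasi-likelihood test, 3.04% were called at an adjusted p under 0.05, 1.64% as higher and 1.4% as lower in GABAergic-like nuclei; of the 66 members, 42 passed the filter on low counts. The median log2 fold change was -0.34 over these members and 0.35 over all genes tested.

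Robo3 ranged from 0 through a median of 73.9 to 134 CPM over the glutamatergic-like sums and from 0 through 0 to 64.4 CPM over the GABAergic-like sums. No Robo3 read fell in 9 of 12 GABAergic-like sums, and 11 of 12 vectors had less Robo3 on that side, although the ranges overlap. The means were 71.6 ± 42.2 and 7.32 ± 18.7 CPM, a 9.78-fold difference (edgeR's quasi-likelihood test, adjusted p = 0.0118). Without hI56i, the highest GABAergic-like value, the means were 69.3 and 2.14 CPM, 32.4-fold apart. Sema4a ranged from 0.949 through 120 to 413 CPM in glutamatergic-like and from 0 through 9.15 to 58.9 CPM in GABAergic-like sums. All 12 vectors had less Sema4a in GABAergic-like nuclei, with means of 12.7 ± 16.5 against 155 ± 135 CPM, a 12.1-fold difference (log2 fold change -4.45, SE 1.10, edgeR adjusted p = 0.0215). The fitted log2 fold change of Robo3, -8.52 (SE 1.95), depends on the small count the model adds to sums of 0, and is no measure of size.

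Both calls were limited. Within library series S40326 alone (7 vectors) the Sema4a log2 fold change was -5.39 and both members missed the threshold (adjusted p = 0.387 for Robo3 and 0.0975 for Sema4a). In runs without a striatal projection neuron-like nucleus (5 vectors) Sema4a was at -4.28, and both missed it again (adjusted p = 0.803 and 0.9997). Sema4a lost its call without AiE0401h, AiE0447h or AiE0743m_3xC2 (adjusted p of 0.0520 to 0.0679). In the glutamatergic-like sums the summed oligodendrocyte markers ran from 19.1 to 10020 CPM, the highest in AiE0682h, and from 0 to 1933 CPM in the GABAergic-like sums. Summed astrocyte markers ran from 154 to 1064 CPM (median 375, 4 of 7 above 0, with Aqp4, Slc7a10 and Gfap at 0) against 0.353 to 542 CPM (median 32.6, 7 of 7 above 0). In the glutamatergic subclasses L5 IT and L6 CT only Slc1a2 was above 0, with sums of 451 to 1091 and 781 to 1092 CPM. In L2-3 IT and L5 ET 4 and 3 of 7 were above 0. The part of either marker set in the result was not tested.

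Slit3, named here after its values were seen, was lower in GABAergic-like nuclei in 12 of 12 vectors, at 16.8 against 103 ± 64.7 CPM, and missed the threshold (adjusted p = 0.0788 by edgeR). Among the most abundant members, Epha5 stood at 221 ± 69.8 CPM in GABAergic-like and 238 ± 110 CPM in glutamatergic-like nuclei (log2 fold change -0.13, SE 0.40). Robo2 was at 268 ± 107 against 143 ± 104 CPM, higher in 10 of 12 vectors, with an adjusted p of 0.401. Epha4 (107 against 179 CPM), Ephb6 (68.1 against 130 CPM), Slitrk5 (50.4 against 110.5 CPM) and Plxna4 (135 against 64.4 CPM) also missed the threshold, with adjusted p-values between 0.419 and 0.706. Plxna2, Epha10, Epha7 and Slitrk3 had ratios of GABAergic-like to glutamatergic-like means between 0.808 and 1.37, with adjusted p-values of 0.935 to 0.956.

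Of 61 other guidance genes (co-receptors, further ligands and cytoplasmic effectors), 50 were tested; 1 was higher and 3 were lower in GABAergic-like nuclei, with a median log2 fold change of 0.13. The lower genes were Ptprd, a receptor phosphatase that binds Slitrks (448 ± 171 against 1763 ± 565 CPM, 12 of 12 vectors), the exchange factor Kalrn (202 against 725 CPM) and Ngef, the exchange factor that acts below EphA4 (12.9 against 168 CPM). The Rac exchange factor Tiam1 was higher, at 114 against 16.4 CPM, in 12 of 12 vectors.

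**Figure D2:**
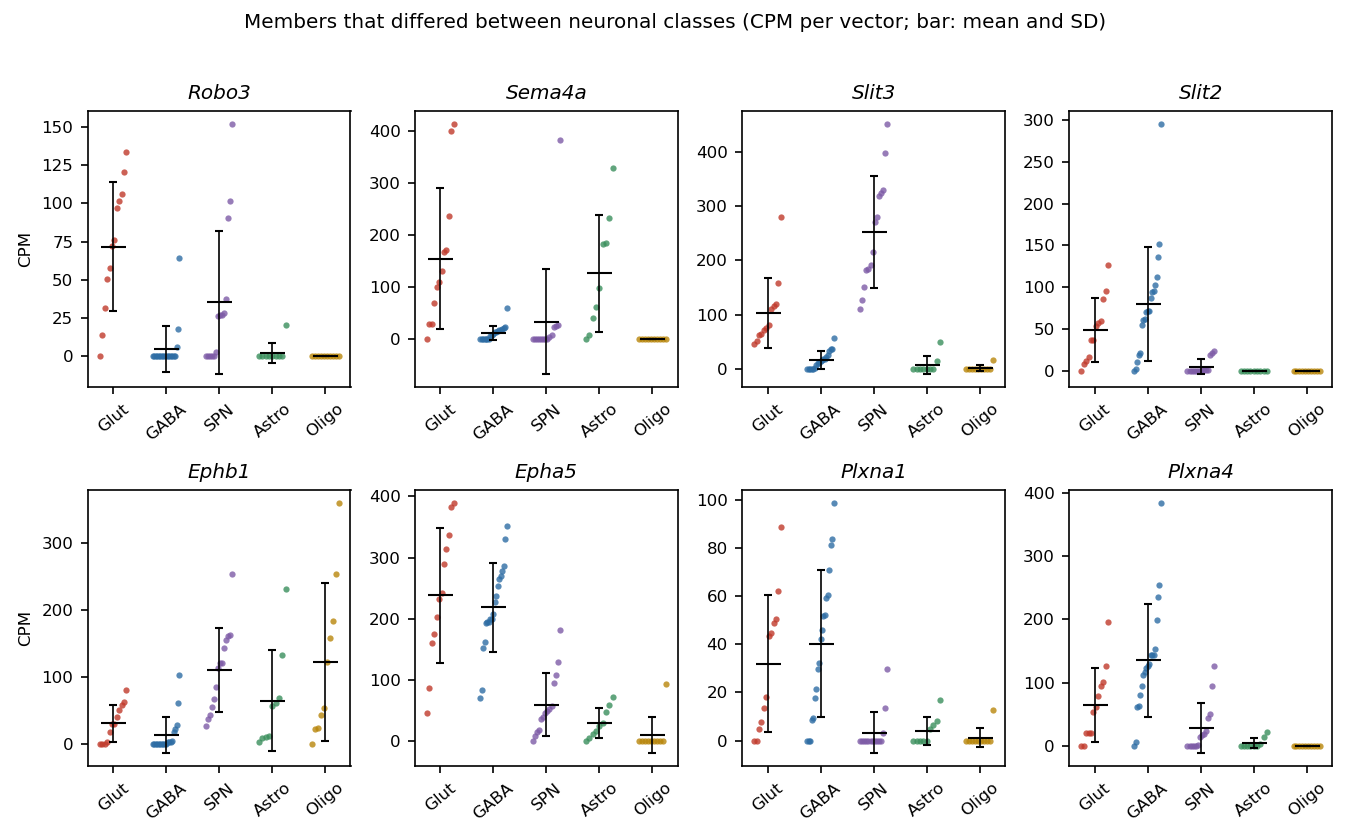
CPM of 8 members in each of the 5 classes (glutamatergic-, GABAergic-, striatal projection neuron-, astrocyte- and oligodendrocyte-like), with 1 point per vector and bars for mean and SD, which can reach below 0. Slit3 and Ephb1 are high in the striatal column, where Slit2 and Plxna1 sit near 0, and Robo3 is low in the GABAergic column.

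Striatal projection neurons use GABA as cortical and striatal interneurons do, and the second comparison set the 2 kinds of nuclei against each other in 13 vectors. Slit3 and Ephb1 were higher in striatal projection neuron-like nuclei, and Plxna1, Epha5, Plxna4 and Slit2 were lower. In this comparison 7.56% of 9122 genes were called, 3.38% as higher and 4.19% as lower in striatal projection neuron-like nuclei, and 33 members were tested. These members had a median log2 fold change of -0.34, against -0.42 over all genes.

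Slit3 ranged from 111 through 215 to 452 CPM in striatal projection neuron-like sums and from 0 through 16.2 to 56.7 CPM in GABAergic-like sums. The ranges do not overlap, and Slit3 was higher in 13 of 13 vectors. The means were 241 ± 97.9 and 17.9 ± 16.6 CPM, a 13.5-fold difference (log2 fold change 4.48, SE 0.80, edgeR adjusted p = 0.000508). Slit2, the other main Slit here, went the other way, with means of 4.99 ± 9.09 against 63.2 ± 45.9 CPM and lower values in 11 of 13 vectors (adjusted p = 0.0398 by edgeR). Their receptor Robo2 was at 255 ± 105 and 238 ± 105 CPM (log2 fold change 0.16, SE 0.36).

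The EphB receptor Ephb1 ranged from 26.4 through 120.5 to 253 CPM in striatal projection neuron-like sums and from 0 through 0 to 103 CPM in GABAergic-like sums. Its values were higher in 12 of 13 vectors, at means of 110.0 ± 65.8 and 16.8 ± 31.5 CPM, a 6.55-fold difference (adjusted p = 0.0100 by edgeR). Without AiE0779m, the vector with the opposite order, Ephb1 stood at 116 and 9.63 CPM, 12.1-fold apart. Epha5, a receptor of ephrin-A ligands, ranged from 0 through 48.9 to 182 CPM against 152 through 228 to 352 CPM on the GABAergic-like side, with less Epha5 in striatal projection neuron-like nuclei in 12 of 13 vectors. Its means of 62.8 ± 52.2 and 237 ± 56.9 CPM gave a log2 fold change of -2.36 (SE 0.60, edgeR adjusted p = 0.0129). Epha7 (192 against 134 CPM) and Epha4 (188 against 123 CPM), of the same subfamily, had adjusted p-values of 0.418 and 0.629.

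Class A plexins, the signalling partners of neuropilins for secreted semaphorins, were not uniform. Plxna1 had a mean of 3.56 ± 8.73 against 46.0 ± 31.1 CPM (lower in 11 of 13 vectors, adjusted p = 0.00756 by edgeR) and Plxna4 of 22.6 ± 35.7 against 143 ± 92.7 CPM (13 of 13 vectors, adjusted p = 0.0208), while Plxna2 stood at 89.2 ± 44.4 and 87.4 ± 60.3 CPM (log2 fold change 0.19, SE 0.73). Without AiE0475m the striatal Plxna1 mean was 1.38 CPM, and without AiE0445h_3xC2 that of Plxna4 was 13.9 CPM. Exons of Plxna1 overlap those of Gm26811, and exons of Plxna4 those of Plxna4os3, on the opposite strand, and reads of such pairs cannot be told apart. Ephb6 (56.5 against 65.8 CPM) and Epha10 (18.7 against 96.7 CPM, lower in 12 of 13 vectors) missed the threshold, with adjusted p-values of 0.959 and 0.106.

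Slit3 and Ephb1 kept their calls within library series S40326 (11 vectors, adjusted p = 0.00555 and 0.0308) and in runs that held a striatal projection neuron-like nucleus (adjusted p = 0.0112 and 0.00169), where the calls on Epha5 and Plxna4 were lost (adjusted p = 0.336 and 0.141). Epha5, Plxna1 and Plxna4 missed the threshold within S40326 at log2 fold changes of -2.58, -6.54 and -4.16 (adjusted p of 0.102 to 0.116). Slit2 lost its call when any 1 of 8 vectors was left out (AiE0140h, AiE0401h, AiE0445h_3xC2, AiE0447h, AiE0450h, AiE0475m, AiE0682h or AiE0743m_3xC2; adjusted p of 0.0785 to 0.0893), and without the vector as a block 2 members (Slit3 and Epha5) were called in place of 6, so Ephb1 lost its call there. Summed oligodendrocyte markers ran from 1.08 to 5446 CPM in the striatal sums, the highest in hI56i, and summed microglia markers up to 1857 CPM; their part in the result was not tested.

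Among the other guidance genes, 4 of 49 tested were higher and 9 were lower in striatal projection neuron-like nuclei (median log2 fold change -0.84). Ngef was at 307 ± 115 against 12.2 CPM and Srgap1, a GTPase-activating protein bound by Robo receptors, at 190 ± 59.2 against 42.2 CPM, each higher in 13 of 13 vectors. Mical2, an actin-oxidising enzyme (38.03 against 217 CPM), Ptprs, a receptor phosphatase (108 against 361 CPM), and the cell adhesion receptor Dscam (1.65 against 24.5 CPM) led the lower genes.

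Astrocyte-like nuclei were compared with all neuronal nuclei of the same 9 vectors; the neuronal sums mix the 3 neuronal classes in proportions that differ between vectors. Plxnb1 was higher and 20 members were lower in astrocyte-like nuclei. Of 10163 genes tested, 17.2% were called, 3.89% higher and 13.3% lower, and 40 members were tested. Their median log2 fold change was -5.97, against -1.78 over all genes tested. Many astrocyte-like sums held no read of a member, and fitted values then depend on the small count the model adds. These medians are therefore no measure of size. Members read on the neuronal side alone could also pass the filter.

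Plxnb1 ranged from 0.820 through 252 to 542 CPM over the astrocyte-like sums and from 0 through 0 to 8.60 CPM over the neuronal sums. It was higher in 9 of 9 vectors, although the lowest astrocyte-like value, in AiE0600m, lies within the neuronal range. The means were 257 ± 201 and 0.988 ± 2.86 CPM (adjusted p = 2.96e-06 by edgeR), and the call held in each of 8 fits without 1 vector in which the gene was tested. It also held within library series S40324 (5 vectors, adjusted p = 0.00111). Exons of Plxnb1 overlap those of the antisense Gm7628, and the reads cannot be told apart. The same holds for Epha10 with 1700125G02Rik, Epha6 with Gm9017, Unc5a with Hk3 and Unc5c with Gm15688. The ligand Sema4d averaged 68.8 CPM (37.2 without AiE0445h_3xC2) over astrocyte-like and 75.4 CPM over oligodendrocyte-like sums, and did not pass the test between astrocyte-like and neuronal nuclei (adjusted p = 0.761).

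The other members with higher astrocyte-like means missed the threshold. Sema4b, a transmembrane semaphorin, was at 68.4 ± 62.6 against 8.12 CPM and higher in 8 of 9 vectors (log2 fold change 4.80, SE 2.02, edgeR adjusted p = 0.109). Sema6d was at 139 against 50.9 CPM, also higher in 8 of 9 vectors (adjusted p = 0.262), and Sema4a at 126 against 36 CPM in 6 of 9 vectors (adjusted p = 0.369).

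The ligands among the 20 lower members were Slit2, Slit3, Sema3a, Sema4f, Sema5a, Sema6b and the lipid-anchored netrin G1 (Ntng1). Slit2 had no read in any astrocyte-like sum and ranged from 12.2 through 45.3 to 118 CPM in the neuronal sums, so the groups do not overlap (adjusted p = 0.00470 by edgeR). Slit3 was at 7.26 ± 16.8 against 70.1 ± 52.2 CPM and Sema5a at 1.12 ± 3.36 against 48.6 ± 30.6 CPM (adjusted p = 0.0141 and 0.00341). Sema3a (0.700 against 29.9 CPM), Sema4f (0.367 against 26.5 CPM), Sema6b (4.09 against 13.8 CPM) and Ntng1 (1.47 against 38.1 CPM) had lower astrocyte-like values in 7 to 9 of 9 vectors.

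The lower receptors came from the plexin, Robo, Unc5 and Eph families. Plxna4 ranged from 0 to 21.6 CPM in astrocyte-like and from 50.2 to 220 CPM in neuronal sums, and Plxna2 from 0 to 38.2 CPM against 44.6 to 134 CPM; neither overlaps (adjusted p = 0.00479 and 0.0180 by edgeR). Robo2 was at 45.9 ± 93.2 against 266 ± 97.7 CPM, lower in 9 of 9 vectors (adjusted p = 0.0201), and the netrin receptor Unc5c at 3.29 ± 4.27 against 104 ± 76.8 CPM (adjusted p = 0.0225). Unc5a, of the same family, was at 4.92 against 26.1 CPM (adjusted p = 0.0313).

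Among Eph receptors, Epha3, Epha5, Epha6, Epha7, Epha10 and Ephb6 were lower. Epha10, which lacks kinase activity, ranged from 0 through 0.410 to 3.96 CPM against 11.1 through 63.3 to 139 CPM, with no overlap, a difference of means of 85.0-fold (adjusted p = 0.00620 by edgeR), or 184-fold without AiE0391h. Epha5 was at 29.1 ± 24.7 against 189 ± 80.6 CPM, also without overlap, and Epha6 at 1.25 ± 1.21 against 35.3 ± 18.95 CPM (adjusted p = 0.0349 and 0.0397). Epha7 (19.9 against 132 CPM), Ephb6 (23.2 against 81.5 CPM) and Epha3 (0.980 against 53.7 CPM) were lower in 8 of 9 vectors. Of the synaptic Slitrks, Slitrk3 (0.826 against 34.7 CPM) and Slitrk1 (0.886 against 24.3 CPM) were lower in 9 of 9 vectors (adjusted p = 0.00249 and 0.0388). Epha4, at 45.3 CPM in astrocyte-like nuclei, missed the threshold (adjusted p = 0.0630), as did Robo1 (adjusted p = 0.430).

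Fewer genes were detected per astrocyte-like than per neuronal nucleus, and 5 of 18 members tested were called when each side was thinned to equal depth and numbers of nuclei. Of the 21 called members 7 could be tested there (Plxnb1 not among them), and 4 kept their call. Without the vector as a block 11 were called, within library series S40326 4 (Plxna4, Robo2 and Slit3 among them) and within S40324 only Plxnb1. The calls on Epha3, Epha5, Epha6, Sema6b, Slitrk1, Unc5a and Unc5c were lost in some fits without 1 vector (adjusted p of 0.0501 to 0.0977); each of the 9 vectors cost at least 1 of them. Single vectors also set the size of several low means: without AiE0401h the ratio of means grew by over 1.5 times for 9 lower members (Epha3, Epha6, Ntng1, Plxna2, Robo2, Sema3a, Sema4f, Slit3 and Slitrk1), Robo2 then standing at 15.7 and Slit3 at 1.93 CPM in astrocyte-like nuclei. It grew likewise for Epha7, Sema6b and Unc5a without AiE0743m_3xC2, for Plxna4 without AiE0390m and for Ephb6 without CMV (Ephb6 at 0.860 CPM), while for Sema4f it shrank from 72.2 to 43.96 without AiE0600m. The neuronal Plxnb1 mean fell to 0.0356 CPM without AiE0401h. The endothelial markers, 5 of 5 above 0, summed to 1138 to 6302 CPM in the astrocyte-like sums and to at most 49.8, 46.1 and 163 CPM in the neuronal classes, and the oligodendrocyte markers to 280 to 3117 CPM. The endothelial list includes Slco1c1, which is among the 10 top genes of the astrocyte-like cluster. The share of Slco1c1 in the endothelial sum was not taken. The part of the endothelial and oligodendrocyte markers in the result was not tested. Mural and fibroblast markers, 6 of 6 above 0, summed to 92.8 to 3436 CPM (median 244) in the astrocyte-like sums, against medians of 0 to 0.322 CPM in the neuronal classes; their part in the result was not tested.

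**Figure D3:**
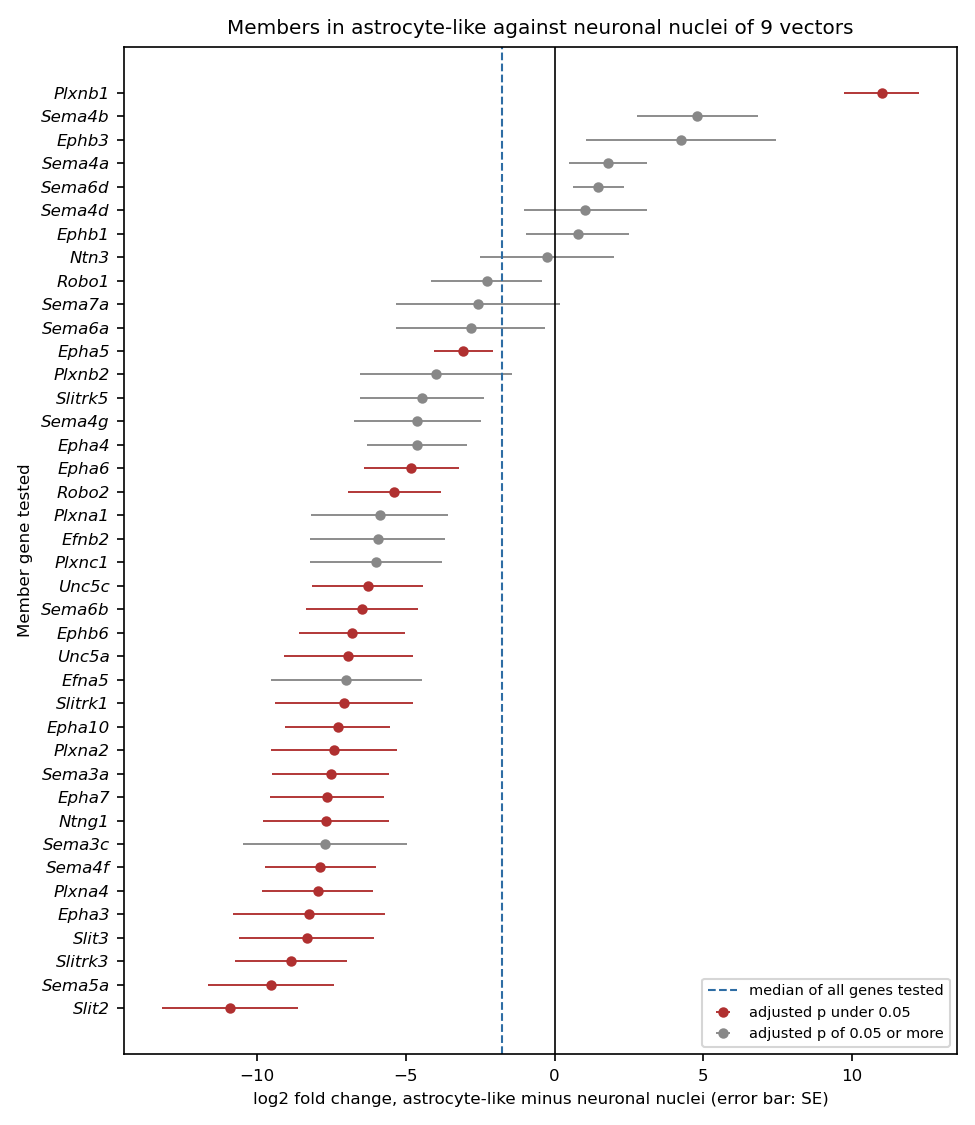
Fitted log2 fold change of the 40 members tested, astrocyte-like minus neuronal nuclei of 9 vectors, with SE bars, red where the adjusted p was under 0.05. Plxnb1 lies alone at the right at 10.99, 20 members lie to the left of 0 in red, and the dashed line marks the median of all genes tested at -1.78. Fitted values that rest on sums of 0 are no measure of size.

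Of the other guidance genes, 1 of 52 tested was higher and 15 were lower in astrocyte-like nuclei (median log2 fold change -1.91). Farp1, an exchange factor that binds plexins, was higher (336 against 47.7 CPM, adjusted p = 0.00962 by edgeR). The neural adhesion proteins Cntn2 (0.826 against 52.6 CPM) and Chl1 (10.7 against 178 CPM), and Dpysl3 and Dpysl5, which relay semaphorin signals to the cytoskeleton (0.590 against 25.1 and 0 against 15.04 CPM), were lower in 9 of 9 vectors.

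Oligodendrocyte-like nuclei were set against all neuronal nuclei of 10 vectors, a comparison added after the levels by class had been seen. Unc5b was higher and 19 members were lower. Of 8608 genes tested, 46.6% were called, 2.43% higher and 44.2% lower, and 27 members were tested. The median log2 fold change was -8.31 over these members and -4.95 over all genes tested. The limits from sums without a read and from the filter hold for these medians too, which are no measure of size.

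Unc5b, a netrin receptor, ranged from 0 through 39.7 to 261 CPM in oligodendrocyte-like sums and from 0 through 0 to 33.98 CPM in neuronal sums. It was higher in 9 of 10 vectors with overlapping ranges, highest in AiE0140h and AiE0682h, and had no read on either side in AiE0391h. The means were 81.1 ± 99.8 and 5.43 ± 11.6 CPM, a 14.9-fold difference (adjusted p = 0.0120 by edgeR). Without AiE0682h they were 63.1 and 2.26 CPM, 27.98-fold apart. Unc5b is also known from blood vessels: the summed endothelial markers ran from 0 through 1.10 to 752 CPM in the oligodendrocyte-like sums, with 4 of 5 above 0 and Cldn5 at 0, and their part in the result was not tested. Unc5c, its paralog, stood at 224 against 82.9 CPM, higher in 8 of 10 vectors (adjusted p = 0.709).

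Several ligands had high oligodendrocyte-like means that missed the threshold. Efnb3 ranged from 1.43 through 199 to 798 CPM, with means of 282 ± 257 against 15.9 ± 19.2 CPM, and was higher in 8 of 10 vectors (log2 fold change 3.55, SE 1.87, edgeR adjusted p = 0.113). Its values in AiE0140h and DLX2.0 were 1.43 and 11.97 CPM, and the other 8 vectors lay between 114 and 798 CPM. Sema6a was at 240 against 34.2 CPM, higher in 8 of 10 vectors (adjusted p = 0.155), and Sema6d at 191 against 46.1 CPM in 9 of 10 vectors (adjusted p = 0.428). Efna1 did not pass the filter; it was at 78.5 against 1.82 CPM, higher in 5 vectors and lower in none. The receptor Ephb1 was at 122 against 49.0 CPM (adjusted p = 0.661).

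Among the 19 lower members, Plxna2, Plxna4 and the secreted Sema3a had no read in any of the 10 oligodendrocyte-like sums. Their neuronal ranges were 44.6 to 182, 7.70 to 174 and 9.85 to 82.0 CPM (adjusted p = 0.000105, 0.000111 and 0.000146 by edgeR). Robo2 was at 4.50 ± 14.2 against 198 ± 49.1 CPM, Robo1 at 0.0118 against 46.4 ± 19.9 CPM and their ligand Slit3 at 1.66 ± 5.24 against 127 ± 100.4 CPM, each lower in 10 of 10 vectors. Robo1 and Robo2 do not overlap between the groups, while Slit3 does. Epha5 (9.30 against 140 CPM), Epha4 (9.54 against 152 CPM), Epha6 (1.78 against 42.3 CPM), Unc5a (0.474 against 36.5 CPM) and Slitrk3 (1.90 against 64.5 CPM) were lower in 10 of 10 vectors as well.

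Epha7, Epha10 and Ntng1 were lower in 9 of 10 vectors (17.9 against 146, 4.82 against 79.2 and 6.16 against 37.4 CPM). Plxnd1 (1.24 against 6.52 CPM), a receptor of Sema3e, and Sema3e itself (6.12 against 43.8 CPM) were lower in 8 of 10 vectors, as was Slitrk5 (11.5 against 58.9 CPM). Ephb6 and Plxnc1, the receptor of Sema7a, were called lower although their means differed by less than 2-fold (33.1 against 61.7 and 30.7 against 47.5 CPM). For Ephb6 the oligodendrocyte-like mean comes from 1 vector, at 331 CPM, with a median of 0. Plxnc1 lost its call without AiE0140h, AiE0391h, AiE0445h_3xC2 or AiE0452h (adjusted p of 0.0530 to 0.0603). Leaving out 1 vector raised the ratio of means by over 1.5 times for Epha5 and Plxnd1 (AiE0682h), Epha4 and Epha7 (AiE0447h), Sema3e and Slitrk5 (AiE0779m), Epha10 (hI56i), Slitrk3 (AiE0140h) and Plxnc1 (DLX2.0); Epha5 then stood at 0.0245 CPM in oligodendrocyte-like nuclei.

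Oligodendrocyte-like nuclei had the fewest genes detected, and 9 of 14 members tested were called after thinning to equal depth and numbers of nuclei (9 of the 20 called members could be tested, and 8 of these kept their call). Called members numbered 11 without the vector as a block, 0 within library series S40326 and 2 within S40324 (Epha5 and Robo2, 4 vectors each). Of the other guidance genes, 2 of 43 tested were higher and 22 were lower in oligodendrocyte-like nuclei, with a median log2 fold change of -4.11. Ptprd (3044 ± 624.7 against 601 CPM) and Cntn2 (457 against 47.5 CPM) were higher in 10 of 10 vectors. Kalrn (7.06 against 339 CPM), Trio, a related exchange factor (2.26 against 93.2 CPM), and Tiam1 (0 against 88.2 CPM) were lower in 10 of 10 vectors, as was Chl1 (0 against 156 CPM).

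**Figure D4:**
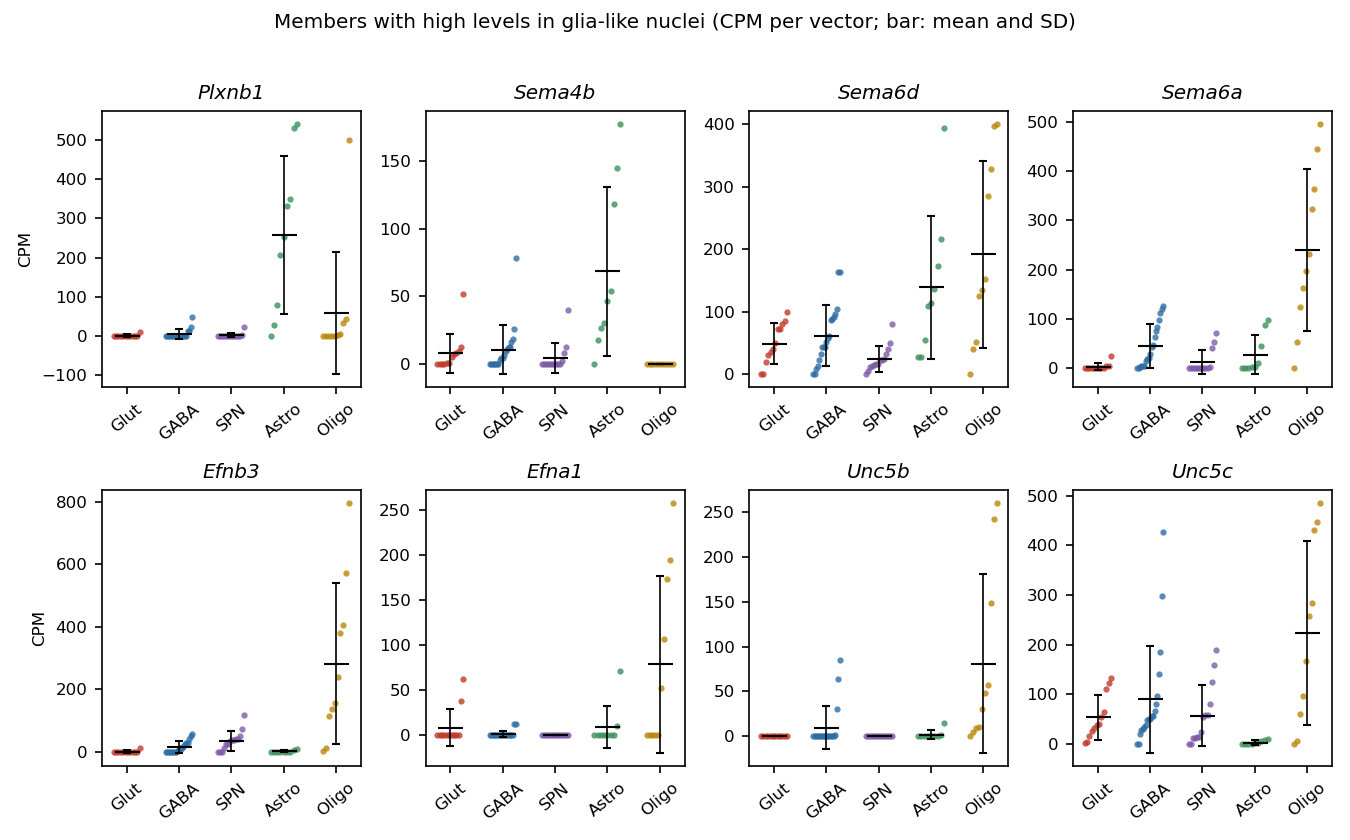
CPM of 8 members in each of the 5 classes, with 1 point per vector and bars for mean and SD, which can reach below 0. Plxnb1 and Sema4b have their highest means in the astrocyte-like column, and Sema6a, Sema6d, Efnb3, Efna1, Unc5b and Unc5c in the oligodendrocyte-like column. Of the 9 astrocyte-like Plxnb1 points 1 lies near 0, at 0.820 CPM.

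Only 3 vectors held both oligodendrocyte-like and astrocyte-like nuclei. In these edgeR called 0 of the 10 members tested, against 2.14% of 4537 genes, while Plxnb1 and Efnb3 had an unadjusted p under 0.05 (0.00832 and 0.0461) and DESeq2 called 6. Members tested had a median log2 fold change of -5.87, and all genes of -4.19, under the same limit from sums without a read. Plxnb1 had no read in the oligodendrocyte-like sums and stood at 26.8, 252 and 531 CPM in the astrocyte-like sums (adjusted p = 0.226 by edgeR). Efnb3 was at 11.97, 240 and 798 CPM in oligodendrocyte-like nuclei and had no read in astrocyte-like nuclei (adjusted p = 0.470). Sema4a (0 against 113 CPM) and the EphB receptor Ephb3 (0 against 63.6 CPM) likewise did not overlap. How many of all genes tested did not overlap was not counted. With 3 vectors such a separation is no result about the members. Over all vectors with either class, without pairing, 2 members were called higher in oligodendrocyte-like nuclei.

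Sst-like and Pvalb-like interneurons, the 2 largest GABAergic subclasses, were compared in 11 vectors. With edgeR 0 of 28 members tested were called, against 0.405% of 7662 genes; 3 (Slit2, Epha4 and Ntn4) had an unadjusted p under 0.05, and DESeq2 called 6. Over the members tested the median log2 fold change was 0.04, and over all genes -0.44. Slit2 ranged from 0 through 26.9 to 120.5 CPM in Sst-like and from 0 through 160 to 287 CPM in Pvalb-like sums, lower in Sst-like nuclei in 10 of 11 vectors. Its means were 35.2 ± 40.04 and 161 ± 82.1 CPM (log2 fold change -3.20, SE 1.36, unadjusted p = 0.0272, adjusted p = 0.627 by edgeR). Epha4 was at 132 against 37.2 CPM, higher in 8 of 11 vectors (adjusted p = 0.711), and the netrin Ntn4 at 43.8 against 45.1 CPM, lower in 8 of 11 vectors (adjusted p = 0.640). Epha5 was at 232 ± 78.4 and 249 ± 150 CPM with a log2 fold change of 0.00 (SE 0.43), and Robo2 at 173 ± 118 and 218 ± 108 CPM. Plxna4 (104 against 199 CPM), Epha10 (181 against 105 CPM) and Slitrk3 (146 against 48.2 CPM) had adjusted p-values of 0.817 to 0.995.

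Drd1-type and Drd2-type striatal projection neurons form the direct and indirect pathways, and were compared in 7 vectors. By edgeR 0 of 25 members tested were called, against 0.101% of 6960 genes; 0 had an unadjusted p under 0.05, and DESeq2 also called 0. The median log2 fold change was -0.23 over the members tested and -0.60 over all genes. Epha4 ranged from 205 through 313 to 451 CPM in Drd2-type and from 82.9 through 207 to 248 CPM in Drd1-type sums. It was higher in 6 of 7 vectors with overlapping ranges, at means of 309 ± 82.5 and 165 ± 73.0 CPM (log2 fold change 0.81, SE 0.61, edgeR adjusted p = 1). Slit3 was at 211 ± 93.4 and 162 ± 53.2 CPM (log2 fold change 0.14, SE 0.68), Robo2 at 303 ± 192 and 351 ± 88.6 CPM, and Ephb1 at 85.9 ± 66.2 and 101 ± 57.5 CPM (log2 fold change -0.64, SE 1.21).

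The smaller subclasses held at least 3 nuclei in only 2 or 3 vectors each and were not tested. Values of subclasses are described here from reads pooled over nuclei, which carry no spread between vectors. Lamp5-like interneurons (20 nuclei) had 528 CPM of Unc5c and 492.9 CPM of Robo2, each read in 15 nuclei, against 46.8 and 224 CPM in Pvalb-like nuclei. In the 2 vectors with at least 3 Lamp5-like nuclei Unc5c was at 565 and 756 CPM. The same nuclei had 371 CPM of Sema5a, 223 of Sema3e, 158 of the secreted Sema3c and 148 of Sema6a; Sema3c was at most 20.4 CPM in every other neuronal subclass shown. Pvalb-like nuclei (117) had 159 CPM of Slit2 and 193 CPM of Plxna4, and Sst-like nuclei (79) had 35.9 and 101 CPM. Neither member passed the threshold in the test of these subclasses given above.

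Within glutamatergic-like nuclei, L6 CT-like nuclei (17) had 369 CPM of Ephb6, 293 of Sema4a, 265 of Plxna2 and 130 of Sema5b. Sema4a was at 198 CPM in L5 ET-like (15 nuclei), 85.1 in L2-3 IT-like (26) and 5.01 CPM in L5 IT-like nuclei (17), so the class mean covers subclasses that lie far apart. Unc5d, a netrin receptor, was at 225 CPM in L5 IT-like and at 5.35 to 14.9 CPM in the other 3 subclasses. Over the glutamatergic-like sums the Unc5d mean was 57.8 CPM, and 27.4 CPM without the highest vector, hI56i. The share of that vector in the pooled L5 IT-like value was not taken. Robo3 stood at 52.8 to 104 CPM in all 4, and at 0 to 4.61 CPM in the 3 interneuron subclasses. Drd2-type nuclei (64) had 104 CPM of Unc5c and 75.9 CPM of Sema3e, against 22.5 and 27.1 CPM in Drd1-type nuclei (92). These are pooled values without a spread between vectors. In the test of these subclasses over 7 vectors given above, 0 of 25 members tested had an unadjusted p under 0.05 by edgeR.

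**Figure D5:**
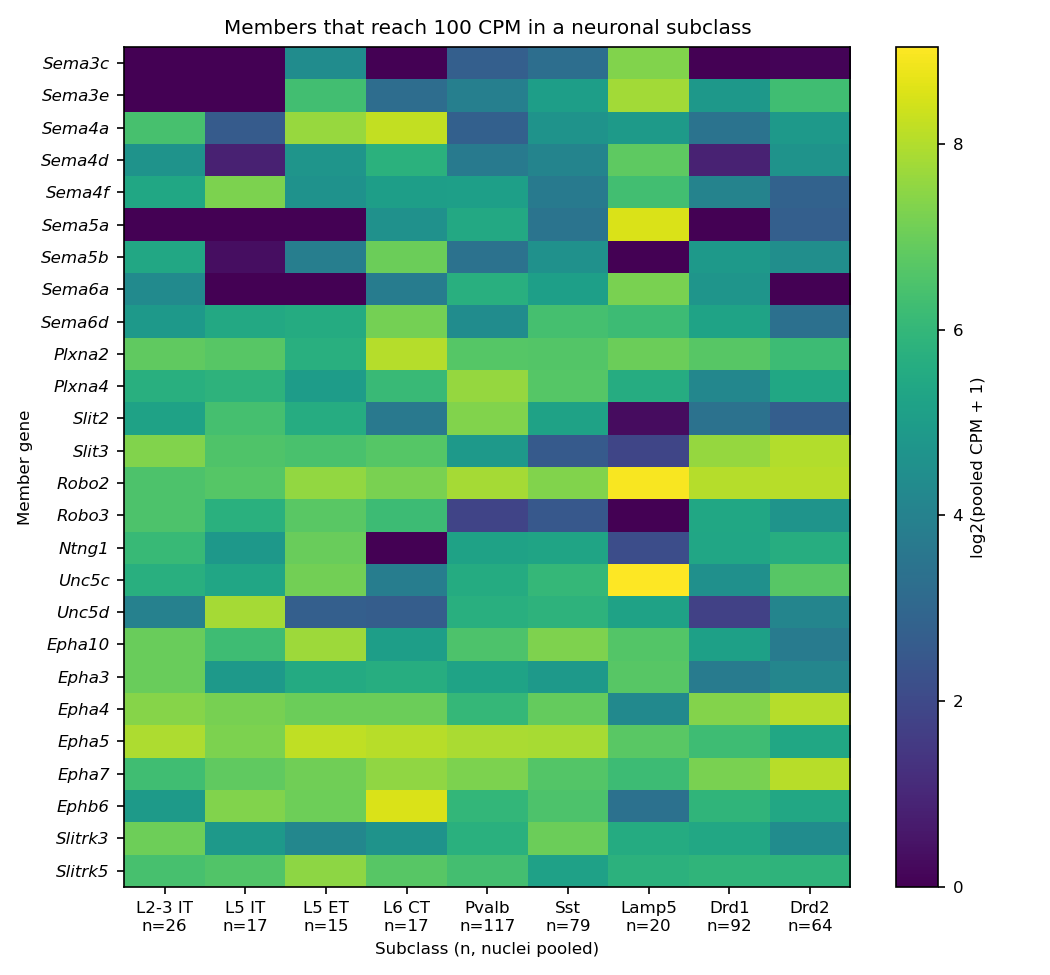
Level of the 26 members that reach 100 CPM in at least 1 neuronal subclass, as log2 of pooled CPM plus 1, with the nuclei pooled given under each subclass. Unc5c and Robo2 are brightest in the Lamp5 column, Sema4a in the L6 CT column and Slit3 in the Drd1 and Drd2 columns.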

How the data were processed

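SMART-Seq v4, which makes full-length cDNA from polyadenylated RNA of 1 nucleus per library, was used per the labels' protocols. It keeps neither strand nor molecule barcodes, so values count reads and grow with transcript length. The authors deposited raw read counts per gene. Per the submitters' processing notes, reads were processed with STAR 2.7.2a and mm10; how reads were assigned to genes is not given in the sources used here. Of the table's columns, 800 carry a label and 1701 others were not used. Summed reads per vector ran from 9467151 to 12192831.

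Symbols and exon lengths came from GENCODE M21, and promoter stretches from RefSeq GRCm38.p6, whose table held 56 of the 66 members. Nuclei with at least 500 genes were clustered with scanpy 1.11.5 and leidenalg 0.10.2 (2000 variable genes, 30 components, 15 neighbours, resolution 1), leaving out members and the 61 other guidance genes, and clusters were named from markers. Subclasses came from a marker score per nucleus with a margin of 0.1. Each library is 1 sorted nucleus, and no doublet caller was run.

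Counts were summed per vector and class over at least 3 nuclei and tested with edgeR 4.0.16 in R 4.3.3 (quasi-likelihood F test, TMM scaling, filterByExpr, vector as block because both sums of a vector share its label, Benjamini-Hochberg adjustment over all genes, threshold 0.05). An SE was taken as the absolute log2 fold change divided by the root of F. DESeq2 1.42.0 was an alternative. Means without single vectors were added after seeing the data. The scripts were tested on simulated data. Named genes were all members past the threshold (at most 25), filled up to 12 with the members of highest mean CPM, the 5 highest members per kb in each class, and at most 6 other guidance genes. Members and lists were chosen with earlier results of these data known. Some genes of the lists are not reported here by name.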

Additional observations from a re-analysis of the deposited data

Results flagged for a closer look

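In the comparison of oligodendrocyte-like with neuronal nuclei, 4 members had 1 vector that stood apart from the other 9 on the log2 ratio of CPM plus 1. Of 41 groups of vectors looked at, chance would set apart about 1 in 20. Epha5 was at -0.85 in AiE0682h, with the nearest other vector at -5.88. Robo2 was at -1.80 in AiE0682h, with the nearest other vector at -6.82. Ntng1, the netrin G1 gene, was at 0.16 in the same vector, with the nearest other at -2.98. Plxna4 was at -3.12 in AiE0779m, with the nearest other at -5.89; it had no read in any oligodendrocyte-like sum, so this ratio restates its neuronal level of 7.70 CPM in that vector.

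The oligodendrocyte-like sum of AiE0682h held 7 nuclei. Summed striatal projection neuron markers stood there at 1586 CPM, against 0 to 496 CPM in the other 9 oligodendrocyte-like sums. Their part in the result was not tested. Epha5, Robo2, Ntng1 and Plxna4 kept their calls in all 10 fits without 1 vector, AiE0682h and AiE0779m included.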

How the results depend on the processing

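Of 1025 fits of single called members under an alternative, 843 kept the call and its direction, 182 kept the direction without the call, and 0 turned it. Many of these fits left out 1 vector and shared most of their data with the main fit. Leiden resolution 0.5 gave classes of the same sizes and the same calls. Fits in which a member did not pass the filter were not counted, so the tally is no independent check. The cause of a changed count was not tested. With DESeq2 the members called were 9 in place of 2 (GABAergic-like against glutamatergic-like), 11 in place of 6 (striatal projection neuron-like against GABAergic-like), 34 in place of 21 (astrocyte-like against neuronal), 6 in place of 0 (oligodendrocyte-like against astrocyte-like) and 6 in place of 0 (Sst-like against Pvalb-like). With at least 1 count in place of the filter they were 4, 14 and, for oligodendrocyte-like against neuronal nuclei, 47 in place of 20. Without the vector as a replicate block, pairing dropped, they were 2 in place of 6, 11 in place of 21 and 11 in place of 20 in the striatal, astrocyte-like and oligodendrocyte-like comparisons, and the all-gene median of the log2 fold change became -0.16, -0.29 and -0.97. The first comparison then also had 2 calls, of which 1 was a call with the block, at an all-gene median of 0.05. The comparisons with 0 calls stayed at 0 without the block. Thinning gave 5 members (astrocyte-like) and 9 (oligodendrocyte-like).

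At least 5 nuclei per sum left 1 call in the first comparison. Library series S40326 alone gave 0, 2, 4 and 0 calls in the first, striatal, astrocyte-like and oligodendrocyte-like to neuronal comparisons, and S40324 alone gave 1 and 2 in the latter pair. Runs of 8 title numbers as the unit gave 0 calls in the first and in the oligodendrocyte-like to neuronal comparison. Runs without a striatal projection neuron-like nucleus gave 0 in the first, and runs with one gave 3 in the striatal comparison. An unpaired fit over every vector gave 2 calls for oligodendrocyte-like against astrocyte-like nuclei. Leaving out 1 vector in turn gave 1 to 2 calls (1 without AiE0401h, AiE0447h or AiE0743m_3xC2), 5 to 8, 15 to 25 and 18 to 25 in the 4 comparisons with calls, and 0 for Sst-like against Pvalb-like and Drd2-type against Drd1-type nuclei. It was not run for oligodendrocyte-like against astrocyte-like nuclei, where it leaves 2 of 3 vectors. Alternatives that left fewer than 3 units, such as a minimum of 2000 genes in glia, were not run. Medians of 1406 and 958 genes per glial nucleus limit what a count of 0 shows there.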

Other observations

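Epha6, an EphA receptor, was read in 26.7% of astrocyte-like and 32% of oligodendrocyte-like nuclei, against 32.1% to 37.6% in the neuronal classes, but at means of 1.25 ± 1.21 CPM over 9 astrocyte-like sums, 1.78 ± 1.46 CPM over 10 oligodendrocyte-like sums and 25.3 to 49.3 CPM in the neuronal classes. Exons of Epha6 overlap those of Gm9017 on the opposite strand, and the reads cannot be told apart. The Plxnb1 mean of 58.2 CPM in oligodendrocyte-like nuclei came mostly from AiE0452h, at 500 CPM, with a median of 0.883 CPM over 10 vectors. Robo4 and Ephb4, known from blood vessels, were each read in 1 of 125 oligodendrocyte-like nuclei.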
